A study of Saccharomyces cerevisiae with 3 samples.

Results

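The 10 yeast genes described here encode enzymes that make leucine, isoleucine and valine, the branched-chain amino acids. They are ILV1 (YER086W), ILV2 (YMR108W), ILV6 (YCL009C), ILV5 (YLR355C), ILV3 (YJR016C), LEU4 (YNL104C), LEU9 (YOR108W), LEU1 (YGL009C), BAT1 (YHR208W) and BAT2 (YJR148W). They were chosen by pathway name, by a list drawn up with the log2 ratios of these arrays already known, so every ratio below is a description. All 10 were among the 6212 identifiers listed and among the 4598 genes with a value in both replicates. All were measured on all 3 arrays except LEU4, which was blank on 1.

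Each array compared total RNA of a mutant with that of its wild type, both of the JA100 background and both grown at 28 °C in synthetic complete medium for 15 h with 100 µg/ml doxycycline. In the mutant, genotype tetO:HAL3 vhs3::URA3, VHS3 was disrupted by URA3 and HAL3 was placed behind a tetO promoter, which doxycycline shuts off. The drug was thus present in the controls too, and the medium supplies amino acids to both strains. In RNA of whole cultures, fewer cells with a transcript and less of it per cell cannot be told apart. The labels name 2 biological replicates, of which replicate 1 was hybridised as a dye-swap pair (the mutant in Cy5, then in Cy3) and replicate 2 once, with the mutant in Cy5. They do not say that the replicates were separate cultures, so the spread between them may be partly technical.

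A few facts of the arrays touch every value. The arrays held 4728 to 4894 ratios each. The ratios were read as mutant over wild type, which is likely but not stated: VHS3 had log2 ratios of −2.06, −2.50 and 0.09 in the order replicate 1 Cy5, replicate 1 Cy3 and replicate 2, and HAL3 (named SIS2 in RefSeq) −1.33, −1.29 and −0.14. URA3, the marker inserted in the mutant, was below 0 on each array (−1.40, −0.82 and −0.33). As a marker carried by the mutant, URA3 goes against this reading, on which every direction below rests. VHS3 goes against the label of the third array, and HAL3 was only 1.10-fold lower there, against 2.48-fold in replicate 1. That array is called the array labelled replicate 2 throughout, and every direction drawn from it carries that doubt. Among the 21 genes with a 2-fold or larger difference in each replicate, 19 had the same direction on it as in replicate 1. The correlation across genes, as a description, was 0.508 (Pearson's r) within the dye-swap pair and 0.159 between replicates. The pair's log2 ratios for a gene differed by a median of 0.47, and the 90th percentile of that gap was 1.06. The SD of the ratios was 0.650 and 0.699 on the pair and 0.353 on the array labelled replicate 2.

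In yeast the isoleucine and valine routes run in parallel through the same mitochondrial enzymes. Threonine deaminase makes the starting oxoacid for isoleucine, and pyruvate is the start for valine. The oxoacid before valine, ketoisovalerate, also leaves the shared route for leucine and for pantothenate, the precursor of coenzyme A. That branch touches the mutated genes, since Hal3 and Vhs3, besides inhibiting the phosphatase Ppz1, are subunits of a coenzyme A synthesis enzyme. The first leucine intermediate, isopropylmalate, turns on the activator Leu3, while Gcn4 activates many amino acid genes in starvation. An aminotransferase completes each amino acid and can also start its breakdown, Bat1 in mitochondria and Bat2 in the cytosol.

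In replicate 1, 9 of the 10 genes had lower transcript levels in the mutant than in wild type, beside 2214 of all 4598 genes. The remaining gene, BAT2, had a higher level. LEU1 was 5.58-fold lower, BAT1 2.14-fold lower, and BAT2 4.10-fold higher as means of the dye-swap pair. On the array labelled replicate 2 the gene farthest from equal was LEU9, 1.34-fold higher, and 7 of the 9 lower genes lay slightly above 0. The median log2 ratio of the 10 genes was −0.77 in replicate 1, compared with 0.17 on the array labelled replicate 2, and 0.02 and 0.00 in the same order over all 4598 genes. By limma with Benjamini-Hochberg adjustment over all genes, 0 of the 10 passed an adjusted p of 0.05, as did 0 of 4598 (0%). The smallest adjusted p among the 10 was 0.925, and 1 of them (BAT2) had an unadjusted p under 0.05, as did 222 of all genes.

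**Figure D1:**
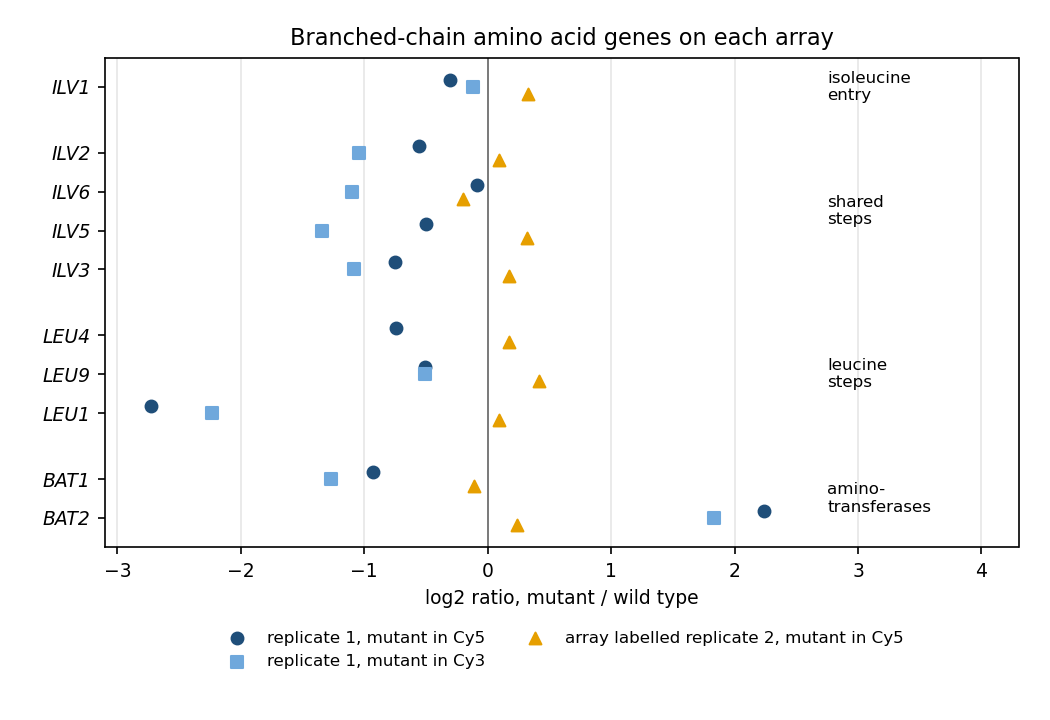
Each point is the log2 ratio of mutant over wild type (horizontal axis) for 1 of the 10 genes (vertical axis, ordered by step) on 1 of the 3 arrays. Circles and squares are the dye-swap pair of replicate 1 and triangles the array labelled replicate 2. LEU1 stands far to the left and BAT2 far to the right on both arrays of replicate 1, while all triangles lie between −0.20 and 0.42.

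Threonine deaminase is the entry to isoleucine and belongs to that amino acid alone. Its gene ILV1 (chromosome V) had log2 ratios of −0.31 and −0.12 across the swapped pair and 0.33 on the array labelled replicate 2. The pair lay below 0 and the third array above it, and ILV1 was the closest of the 10 to 0 in replicate 1, 1.16-fold lower. Its mean was 0.06 ± 0.39 (SD, n = 2, adjusted p of 0.987 in limma). On the array labelled replicate 2, 292 of the 4598 genes were higher than ILV1.

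The shared steps are catalysed by Ilv2 with Ilv6, by Ilv5 and by Ilv3, which serve isoleucine, valine and, through ketoisovalerate, leucine. ILV2 (chromosome XIII), the catalytic subunit of acetolactate synthase, was at −0.55 and −1.04 on the pair and 0.09 on the array labelled replicate 2. ILV6 (chromosome III), the regulatory subunit that makes this enzyme sensitive to valine, was at −0.09, −1.10 and −0.20. ILV6 was the 1 gene of these 4 below 0 on each array, but its gap of 1.01 between the arrays of the pair was the widest of the 10 genes. ILV5 (chromosome XII), the reductoisomerase, which is also known for a role in keeping mitochondrial DNA stable, was at −0.50, −1.34 and 0.32. ILV3 (chromosome X), the dihydroxyacid dehydratase, an iron-sulfur enzyme, was at −0.75, −1.08 and 0.17. Each of these 4 genes was lower with the mutant in Cy3 than with the mutant in Cy5, by 0.34 (ILV3) to 1.01 (ILV6).

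The 4 shared-step genes stood close together as replicate means. In replicate 1 they ran from 1.51-fold lower for ILV6 to 1.89-fold lower for ILV5, with a mean log2 ratio of −0.81, and on the array labelled replicate 2 the mean was 0.10. Their means over both replicates were −0.35 ± 0.63 for ILV2, −0.40 ± 0.28 for ILV6, −0.30 ± 0.88 for ILV5 and −0.37 ± 0.77 for ILV3 (SD, n = 2). For ILV6 the mean was larger than the SD, and for the other 3 it was smaller. Between the subunits of acetolactate synthase, the log2 ratio of ILV6 minus that of ILV2 was 0.46, −0.06 and −0.29 on the 3 arrays, with no common sign.

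Isopropylmalate synthase opens the leucine branch and has isozymes encoded by LEU4 and LEU9, whose sequences are similar enough that the probe of one could hybridise with the other's transcript. LEU4 (chromosome XIV), the main isozyme, was at −0.74 with the mutant in Cy5 and 0.18 on the array labelled replicate 2, and its replicate 1 value therefore rests on 1 array. LEU9 (chromosome XV) was at −0.51 on both arrays of the pair and 0.42 on the array labelled replicate 2. Both isozyme genes were lower in replicate 1 and higher on the third array. LEU9 was above LEU4 by 0.24 on each of the arrays that measured both. LEU9 had the highest value of the 10 genes on the array labelled replicate 2, where 140 of 4598 genes were higher. Their means were −0.28 ± 0.65 and −0.04 ± 0.65 (SD, n = 2).

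Isopropylmalate isomerase, the next leucine enzyme, works in the cytosol and, like the ILV3 product, carries an iron-sulfur cluster. Its gene LEU1 (chromosome VII) was at −2.73 and −2.23 across the swapped pair and 0.09 on the array labelled replicate 2. LEU1 was thus more than 4-fold lower on both arrays of replicate 1 and near equal on the third. In replicate 1 only 13 of the 4598 genes had a lower ratio. Its mean was −1.19 ± 1.82 (SD, n = 2, adjusted p of 0.925 in limma). Compared with ILV3, LEU1 was lower by 1.98 and 1.15 on the log2 scale in the pair, and by 0.08 on the array labelled replicate 2.

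The aminotransferase genes BAT1 and BAT2, which arose from a common ancestor and encode similar proteins, had ratios on opposite sides of 0. BAT1 (chromosome VIII), for the mitochondrial enzyme, was at −0.93, −1.27 and −0.11. BAT2 (chromosome X), for the cytosolic enzyme, was at 2.23, 1.83 and 0.24. BAT1 was below 0 and BAT2 above 0 on each of the 3 arrays, the smallest distances being on the array labelled replicate 2. There 1457 of the 4598 genes were lower than BAT1, and 664 were higher than BAT2. In replicate 1 BAT1 was lower than all but 143 of the 4598 genes, and BAT2 was higher than all but 13. Their means were −0.61 ± 0.69 and 1.14 ± 1.27 (SD, n = 2), each smaller than its SD, with an adjusted p of 0.925 for both in limma.

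The log2 ratio of BAT2 exceeded that of BAT1 by 3.16 and 3.10 log2 units across the swapped pair and by 0.35 on the array labelled replicate 2. Both arrays of replicate 1 gave nearly the same difference, an 8.94-fold and an 8.60-fold shift in the ratio of the transcripts toward BAT2. The array labelled replicate 2 gave a 1.28-fold shift in that direction. The mean difference was 1.74 ± 1.96 (SD, n = 2), so it was smaller than the spread between replicates. Because the genes are related in sequence, a probe of either may also bind transcripts of the other, and the files do not say where the probes lie.

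The leucine steps compared with the shared steps gave no common direction across arrays. The mean log2 ratio of LEU4, LEU9 and LEU1 minus that of the 4 shared-step genes was −0.85 with the mutant in Cy5 and 0.13 on the array labelled replicate 2. With the mutant in Cy3, where LEU4 was blank, the difference for LEU9 and LEU1 alone was −0.23. The mean over both replicates, with LEU4 in replicate 1 taken from its 1 array, was −0.15 ± 0.40 (SD, n = 2). The leucine genes were divided among themselves in replicate 1. LEU1 alone was at −2.26 and −1.09 relative to the shared-step mean on the pair, and at −0.0030 on the third array. LEU4 and LEU9 together were at −0.15, 0.64 and 0.20 relative to the same mean, the second value being LEU9 alone. With the mutant in Cy5, where all 3 leucine genes were measured, LEU4 and LEU9 thus lay close to the shared-step mean and LEU1 far below it.

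**Figure D2:**
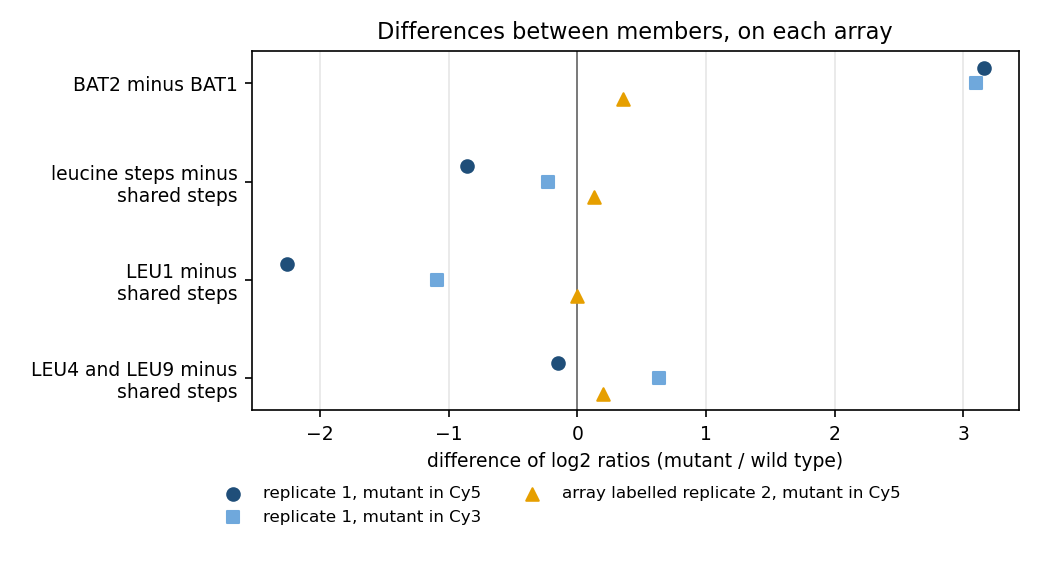
Differences between log2 ratios (mutant over wild type) of members or means of members, 1 point per array, on a horizontal axis in log2 units. BAT2 minus BAT1 lies above 3 on both arrays of replicate 1 and at 0.35 on the array labelled replicate 2, and the leucine steps minus the shared steps lie on both sides of 0.

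The members were also grouped by place in the cell, which was known when they were listed. The 8 genes for mitochondrial enzymes were all below 0 in replicate 1, beside 2214 of all 4598 genes. They ran from −1.10 (BAT1) to −0.22 (ILV1), with a median of −0.77. The genes for the cytosolic enzymes, LEU1 and BAT2, lay outside that range on opposite sides, at −2.48 and 2.03. On the array labelled replicate 2 the mitochondrial group ran from −0.20 to 0.42, and LEU1 and BAT2, at 0.09 and 0.24, lay inside it.

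Set against all genes, 8 of the 9 members measured on both arrays of replicate 1 were below 0 on both, beside 28.4% of 4546 genes. At least 2-fold lower on both were 1 of 9 (LEU1), beside 2.62% of genes, and at least 2-fold higher on both 1 of 9 (BAT2), beside 1.21%. BAT1 reached 2-fold on 1 array of the pair, at −1.27, and missed it at −0.93 on the other. In 7 of 10 members the ratio was below 0 in replicate 1 and above 0 on the array labelled replicate 2, beside 23.5% of all genes. On the latter array 0 of 10 differed at least 2-fold in either direction, beside 2.31% of genes. As the members were listed with these ratios known, nothing is read from these counts.

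**Figure D3:**
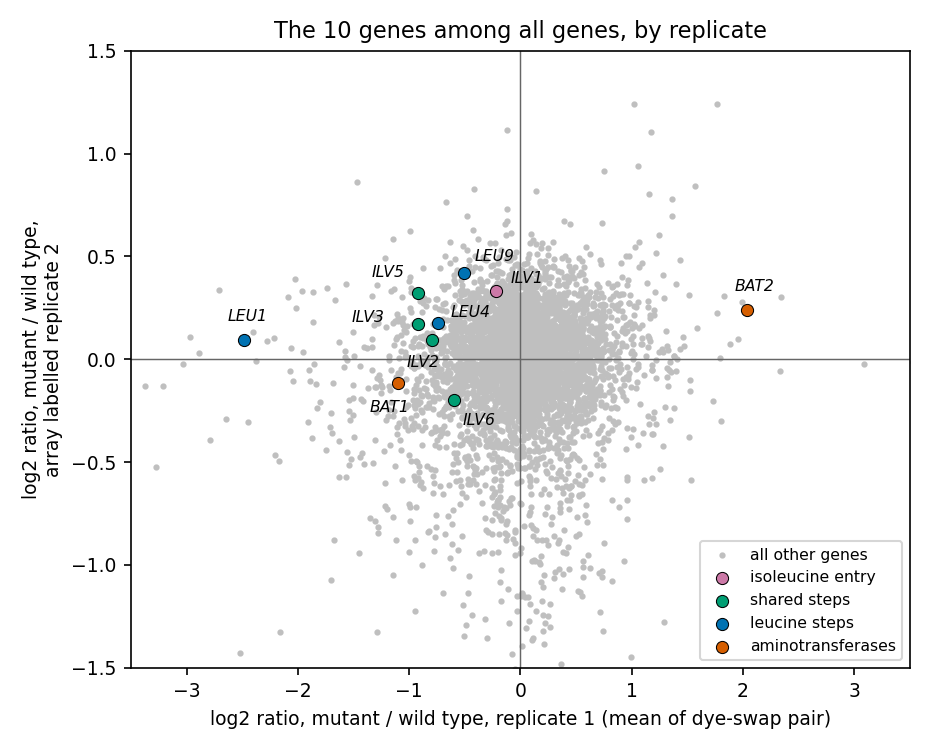
Each point is a gene, with its log2 ratio of mutant over wild type in replicate 1 (mean of the dye-swap pair) on the horizontal axis and on the array labelled replicate 2 on the vertical axis. Coloured points are the 10 genes by step, and 37 of the 4598 genes lie outside the axes. The members spread widely from LEU1 to BAT2 along the horizontal axis and narrowly along the vertical one.

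Chromosome IX was shifted as a whole, so the members were set against the median of their own chromosome. None of the 10 lies on it, and its median in replicate 1 was −0.67. The chromosome medians of the members lay between −0.01 and 0.10 in replicate 1 and from −0.08 to 0.14 on the array labelled replicate 2. Relative to them LEU1 was at −2.59, BAT1 at −1.16 and BAT2 at 1.99 in replicate 1. On the third array, 41 of the 91 genes at least 2-fold lower lie on chromosomes VII and VIII, which hold 658 of the 4598 genes, LEU1 and BAT1 among them. On the array labelled replicate 2 BAT1 was at −0.04 relative to chromosome VIII, and ILV6 at −0.33 relative to chromosome III.

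The third leucine enzyme and the regulators of the pathway were not among the 10. LEU2 (YCL018W), isopropylmalate dehydrogenase, which follows Leu1 in the cytosol, was at −1.30 and −1.97 on the pair and 0.08 on the array labelled replicate 2. In replicate 1 it thus lay between LEU1 and BAT1, although the labels do not say whether JA100 carries an intact LEU2. LEU3, the activator of the leucine genes, was at 0.15, 1.83 and 0.18, above 0 on each array but with a gap between the arrays of the pair beyond the 90th percentile. GCN4, which is controlled mainly at translation, was at −0.11, −0.28 and 0.14.

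Other targets of Leu3 were below 0 in replicate 1. OAC1, a mitochondrial carrier of oxaloacetate and isopropylmalate, was at −0.89, −1.35 and 0.10. BAP2, a permease for branched-chain amino acids, was at −0.87, −0.88 and 0.11. GDH1, the glutamate dehydrogenase that supplies glutamate, was at −0.07, −0.61 and −0.06. OAC1 and BAP2 were thus lower on both arrays of the pair and slightly above 0 on the third. The permease genes BAP3 (0.02 in replicate 1, −0.12 on the array labelled replicate 2) and TAT1 (0.35 and 0.32) did not have that pattern.

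Threonine is the source of isoleucine carbon, and its synthesis genes were mixed. HOM3, HOM2, HOM6, THR1 and THR4, in the order of the steps from aspartate to threonine, ran from −0.74 (HOM2) to 0.24 (HOM6) in replicate 1. On the array labelled replicate 2 they ran from −0.05 to 0.25. HOM2 was at −0.73 and −0.74 on the pair, while THR1, at 0.36 and −0.74, lay on both sides of 0. CHA1, a deaminase that breaks down serine and threonine and forms from threonine the same oxoacid as the ILV1 enzyme, was at −2.39, −2.04 and 0.11. CHA1 was 4.63-fold lower in replicate 1, against 1.16-fold for ILV1.

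The branches that leave the pathway were mixed. In the pantothenate branch ECM31, which acts first on ketoisovalerate, was at 0.26 and −0.13 on the pair and −1.15 on the array labelled replicate 2. PAN5, the ketopantoate reductase, was at −0.34, −0.01 and −0.18. PAN6, pantothenate synthase, on chromosome IX, was at −0.34, −0.57 and 0.10. Of the decarboxylase genes of the breakdown to fusel alcohols, THI3, PDC1, PDC5 and PDC6 lay between −0.31 and 0.15 in replicate 1, and ARO10 was measured on the Cy3 array alone, at 0.83.

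MMF1 (YIL051C), for a mitochondrial protein needed to maintain isoleucine synthesis, was at −1.63, −2.40 and 0.25. It lies on chromosome IX, which was shifted in replicate 1, and it was 4.04-fold lower in that replicate. HMF1, its relative outside the mitochondrion, was at 1.09, −0.03 and 0.32, so the arrays of the pair disagreed. In all, 23 of the 24 other genes of the pathway were measured in both replicates, and 0 passed the limma test over all genes in either direction. Of these 23, 15 were below 0 in replicate 1, beside 2214 of all 4598 genes, and their median there was −0.19. The third array had 8 of them below 0, beside 2288 of all 4598 genes, with a median of 0.10.

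Genes for other amino acids gave the members' pattern in part. The 9 arginine synthesis genes were all below 0 in replicate 1, beside 2214 of all 4598 genes. Their median there was −1.66, with a lowest value of −4.80 (ARG3), and 0.13 on the array labelled replicate 2. The 7 lysine synthesis genes were all below 0 too, with a median of −1.05 and 0.05 on the array labelled replicate 2, although LYS1 and LYS12 lie on chromosome IX. Of 7 histidine synthesis genes 6 were measured, with medians of −0.35 and 0.12, and HIS1 was above 0 at 0.45 in replicate 1. HIS5 (−1.37 in replicate 1) and HIS6 (−0.55) lie on chromosome IX too, and without them the replicate 1 median of histidine synthesis was −0.13. Without LYS1 and LYS12 that of lysine synthesis was −1.05. The branched-chain median of −0.77 in replicate 1 lay between those of lysine and histidine. No gene of these 3 lists reached an adjusted p of 0.05 in limma.

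**Figure D4:**
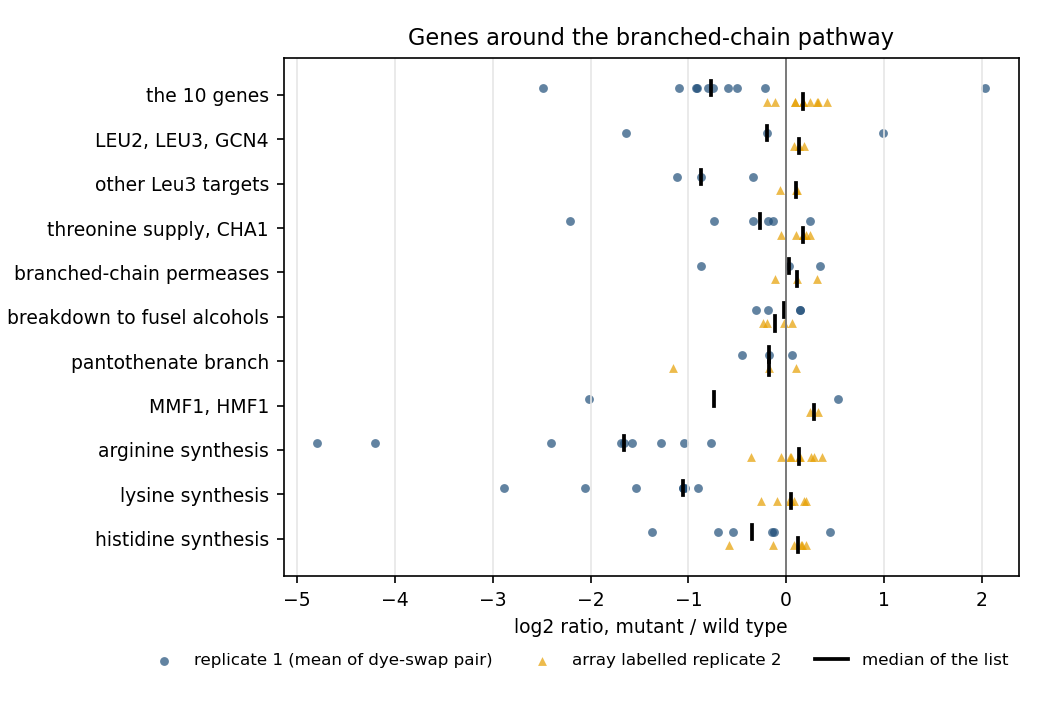
Log2 ratios of mutant over wild type for the 10 genes, for other genes of the pathway and for 3 other amino acid pathways, 1 point per gene with black bars at list medians. Circles show replicate 1 and triangles the array labelled replicate 2. BAT2 is the highest circle plotted, at 2.03, while the arginine circles reach −4.80.

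LEU1, at −1.19, had the mean farthest from 0 of the 10 genes with arrays centred on their medians, just ahead of BAT2 at 1.14. BAT2 was ahead of LEU1 without centring (1.17 against −1.16) and with arrays scaled to the same spread (1.05 against −0.92). The same held with quantile normalization (1.11 against −1.02). Without replicate 1, BAT2 was ahead of LEU1 too (0.24 against 0.09), but LEU9 (0.42), ILV1 (0.33) and ILV5 (0.32) were farther from 0. Among 4257 other genes measured on all 3 arrays, the genes nearest to LEU1 by Euclidean distance over the 3 log2 ratios were ARG56 (distance 0.158), CHA1 (0.394) and CYC7 (0.523). ARG56 (YER069W), for an arginine synthesis enzyme, was at −2.73, −2.08 and 0.13. CYC7, for the minor form of cytochrome c, was at −2.93, −1.96 and −0.31. With 3 arrays, of which 2 share their RNA, such nearness is a description of these arrays.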

How the data were processed

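Each gene has 1 log2 ratio per array in the table deposited by the authors. How the scans were background-corrected, filtered and normalized, and the genome build, were not stated in the labels or the file, and with no intensities the distance of any signal from background is unknown. Per the labels' protocols, cDNA was made from 8 µg of total RNA with oligo(dT) and labelled indirectly. Read as log2, 100% of the deposited values are whole multiples of 0.001 as ratios (tolerance 6e-05 in log2), against 11.6 to 13.2% with the sign turned. Since the correlation within the dye-swap pair was positive, no sign was turned. Blanks were left out.

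Each array was centred on its median, as a difference from deposited medians of 0.0072 to 0.0468. Both arrays of replicate 1 were averaged, or the single value was taken where 1 array was blank. The mean was compared with 0 by limma 3.58.1 under R 4.3.3 (lmFit, eBayes, n = 2, 1 residual degree of freedom, prior 5.15), two-sided, with Benjamini-Hochberg adjustment over 4598 genes. The fit was tried on simulated data whose replicates had equal spread, unlike these arrays. That trial does not show how the fit performs here. Gene names came from RefSeq's table of R64, which matched 5638 of 6212 identifiers by locus tag. Members and lists were chosen with earlier results of these data known. All 10 members and every measured gene of the pathway lists could be named. From the other amino acid lists, genes at an extreme of their list or on chromosome IX were named after their values were seen. Differences between members have no test, since the members were chosen with the same ratios known. No promoter or protein sequences were used here.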

Additional observations from a re-analysis of the deposited data

How the results depend on the processing

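The number of arrays limits every value, and the results rest mainly on replicate 1. With each replicate left out in turn, the median of the 10 genes ran from −0.77 to 0.17, the count below 0 in every replicate used from 2 to 9 (2 with both), BAT2 minus BAT1 from 0.35 to 3.13, and leucine minus shared steps from −0.44 to 0.13. Single genes ran from −0.22 to 0.33 (ILV1), −0.80 to 0.095 (ILV2), −0.92 to 0.32 (ILV5), −0.92 to 0.17 (ILV3), −0.74 to 0.18 (LEU4), −0.51 to 0.42 (LEU9) and −2.48 to 0.095 (LEU1), the values above 0 all coming without replicate 1. ILV6, BAT1 and BAT2 kept their sign. With 1 replicate left no test was run. Over the mean of the replicates, LEU9 turned to 0.19 when arrays were scaled to the same median absolute deviation and to 0.24 with quantile normalization. ILV1 turned to −0.034 with the 3 arrays fitted as if independent and to −0.056 with a dye coefficient. The cause was not tested. No other member changed sign under the 8 alternatives that used both replicates, of which 3 gave no value for LEU4. Sizes moved more. The median of the members fitted (−0.33 for all 10) ran from −0.64 with a dye coefficient to −0.18 with scaling. Leucine minus shared steps (−0.15) ran from −0.40 with 3 single arrays to −0.054 with quantile normalization. The values of −0.64 and −0.40 lack LEU4, so they do not cover the same genes as −0.33 and −0.15. With only genes measured on all 3 arrays, which also leaves out LEU4, the median was −0.35 and leucine minus shared steps −0.26. Single genes such as ILV5 (−0.30) ran from −0.72 to −0.063, and BAT2 minus BAT1 (1.74) from 1.60 to 2.43. Over all genes 0 passed in limma (222 at an unadjusted p under 0.05), against 4 with that scaling, 12 with quantile normalization and 16 with the 3 arrays as if independent, which counts the pair as separate replicates. The fit with a dye coefficient counts the pair so too, and both of these fits give replicate 1 more weight. In each fit 0 of the members fitted passed, their smallest adjusted p ranging from 0.157 to 0.934. The count below 0 in both replicates was not formed for the fits on 3 single arrays, and the robust prior bears on calls only. No paired analysis was possible because the arrays form 1 group of ratios.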
